A study of Mus musculus with 36 samples.

Results

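The 28 genes described here encode enzymes of cholesterol synthesis, the regulators that set their transcription and a pair of proteins that move or store sterols. They were chosen by name, as members of the pathway, but with earlier results of these data known. All 28 were found among the 25488 mouse genes to which the deposited transcripts could be assigned. RNA sequencing was performed on 36 libraries of C57/Bl6 mouse brain cells, all with astrocyte given as the cell type. The libraries fall into 18 groups of 2, which are the populations A, B, C, D, E and Neg each taken from olfactory bulb, cortex and brainstem. A to E are called the lettered populations below, with 30 libraries, against 6 of Neg. The labels do not say what the letters or Neg stand for, how the cells were isolated, or the age or sex of the mice, and the design text of the series calls the samples cell lines. Whether the 2 libraries of a group are from different mice is not stated, and the p-values therefore reflect the library-to-library spread alone, part of which may be technical. No treatment or genotype is given, and the populations and regions are the only comparisons.

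Cholesterol is built in every cell from acetyl-CoA by way of mevalonate, isoprenoid pyrophosphates, squalene and lanosterol. Transcription of most of its enzymes is driven by the sterol regulatory element binding proteins (SREBPs), which are made as membrane proteins of the endoplasmic reticulum. The escort protein SCAP carries them to the Golgi for cleavage when sterols are scarce, and the INSIG proteins hold SCAP back when sterols are plentiful. The blood-brain barrier keeps out the lipoproteins of the plasma, so the brain makes its own cholesterol, and in the adult brain astrocytes are a main source of the sterol that is handed to neurons on lipoprotein particles.

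The promoters are shown first because the coordinate control of this pathway is known to act through short elements near the gene start. The windows below run from 250 bases before to 50 bases from the start of the RefSeq transcript on (build GRCm38.p6), 5′ to 3′ on the strand of the gene. They are those of the regulators Insig1 and Srebf2 and of the enzyme genes Hmgcs1 and Msmo1, shown because each holds letters of the sterol element and each gene is described in detail below. Capitals mark, on either strand, TCACNCCA or CACNCCAC (overlapping parts of a sterol element), CCAAT (the box bound by NF-Y), GGGCGG (the GC box bound by Sp1) and CACGTG (an E-box).
Insig1, chr5:28071162-28071461, plus strand: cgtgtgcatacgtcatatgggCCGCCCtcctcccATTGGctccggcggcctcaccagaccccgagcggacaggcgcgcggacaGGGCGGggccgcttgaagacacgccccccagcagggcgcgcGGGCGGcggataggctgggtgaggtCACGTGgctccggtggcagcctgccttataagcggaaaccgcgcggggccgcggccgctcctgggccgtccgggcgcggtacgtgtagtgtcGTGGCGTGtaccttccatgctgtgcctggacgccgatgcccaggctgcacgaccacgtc
Srebf2, chr15:82147019-82147318, plus strand: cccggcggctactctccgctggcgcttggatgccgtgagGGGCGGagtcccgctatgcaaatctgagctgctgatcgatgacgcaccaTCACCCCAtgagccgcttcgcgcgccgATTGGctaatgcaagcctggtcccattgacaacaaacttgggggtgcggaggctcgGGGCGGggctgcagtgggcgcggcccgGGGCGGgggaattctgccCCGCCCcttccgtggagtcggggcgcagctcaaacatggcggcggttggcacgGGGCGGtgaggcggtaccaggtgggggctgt
Hmgcs1, chr13:119690101-119690400, plus strand: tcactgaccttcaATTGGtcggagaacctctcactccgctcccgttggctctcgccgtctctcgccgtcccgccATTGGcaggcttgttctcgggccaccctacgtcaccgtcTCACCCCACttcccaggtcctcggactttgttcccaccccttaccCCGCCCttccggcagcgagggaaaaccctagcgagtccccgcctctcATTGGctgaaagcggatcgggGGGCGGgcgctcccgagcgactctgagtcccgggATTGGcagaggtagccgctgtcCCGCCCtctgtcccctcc
Msmo1, chr8:64733529-64733828, minus strand: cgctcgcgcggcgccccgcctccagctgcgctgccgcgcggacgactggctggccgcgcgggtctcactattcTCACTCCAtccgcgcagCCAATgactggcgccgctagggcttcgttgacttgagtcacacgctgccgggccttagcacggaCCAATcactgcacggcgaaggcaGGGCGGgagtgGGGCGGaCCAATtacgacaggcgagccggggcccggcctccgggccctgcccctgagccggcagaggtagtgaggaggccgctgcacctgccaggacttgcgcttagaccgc

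In the Hmgcs1 window TCACNCCA lies at -137 to -130, where 0 is the first transcribed base, with an inverted CCAAT box (ATTGG) on either side of it. Srebf2 holds TCACNCCA at -162 to -155, and Msmo1 at -177 to -170. Insig1 holds CACNCCAC on the minus strand at -9 to -2 and the E-box at -101 to -96. RefSeq promoters were found for 24 of the 28 genes. The letters TCACNCCA or CACNCCAC stood in 5 of the 24 (20.8%), namely Acat2, Hmgcs1, Msmo1, Srebf2 and Insig1, against 10.4% of all 27025 genes with a promoter in the same window and 10.3% of the 10566 that were also tested for expression. CCAAT stood in 22 of 24 (91.7%), against 41.1% of all genes and 42.2% of those tested. GGGCGG stood in 22 of 24 (91.7%), against 38.2% of all genes and 68.0% of those tested. CACGTG stood in 5 of 24 (20.8%), against 8.09% of all genes and 11.5% of those tested. A match of letters is a description of the sequence and not a binding site, and the files hold no binding data.

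**Figure D1:**
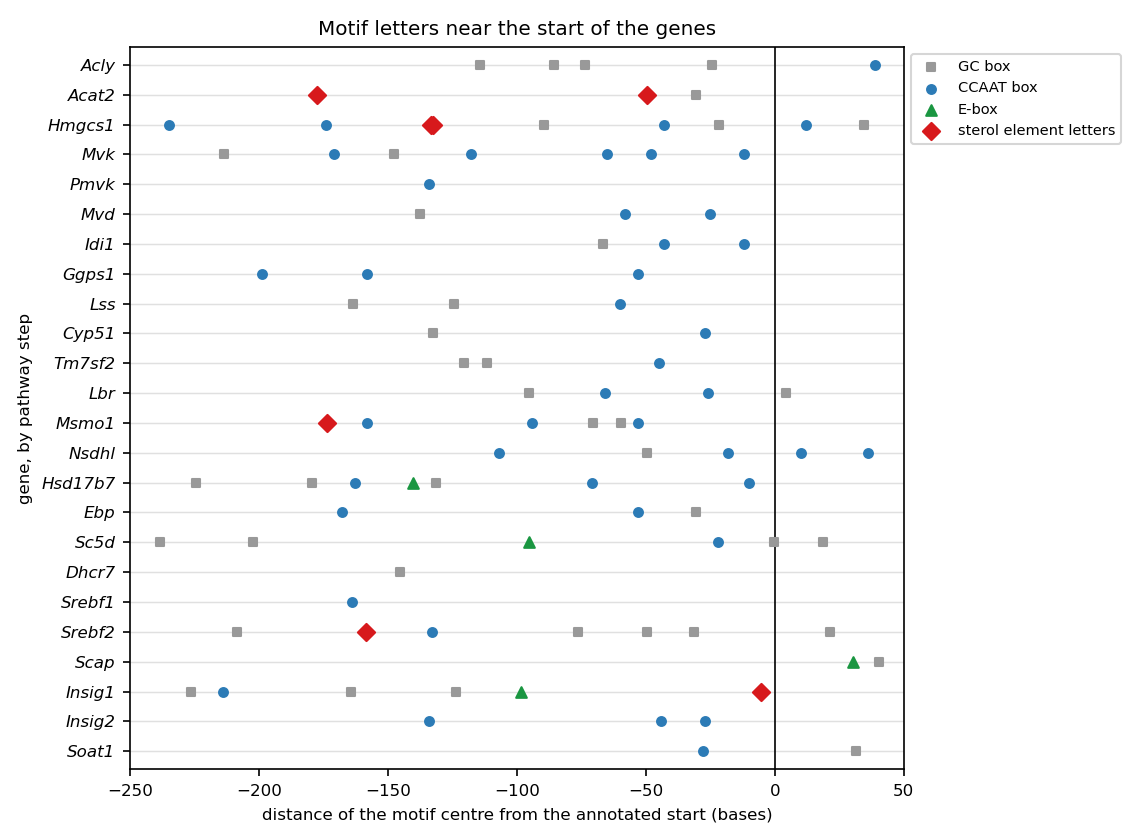
Position of motif letters in the promoters of 24 of the genes, by pathway step from top to bottom; the x axis is the distance in bases of the motif centre from the annotated start, and each symbol is 1 match on either strand (grey squares GC box, blue circles CCAAT box, green triangles E-box, red diamonds letters of the sterol element). Only the first listed promoter of each gene is drawn; CCAAT boxes are spread through most rows, and red diamonds stand in 5 of them.

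The libraries differed in how many genes they detected. At least 1 FPKM (fragments per kilobase of transcript, scaled to the mapped fragments of the library) was reached by 4281 to 9378 genes in A, 5903 to 10361 in B, 8708 to 9981 in C, 3001 to 8694 in D, 3003 to 6780 in E and 2104 to 7466 in Neg, and 8 libraries held fewer than 5000. Read depth, taken from the ratio of coverage to FPKM on a relative scale, was lowest in the first brainstem E library at 0.0695 and the first olfactory bulb E library at 0.316, against 1.17 to 4.08 in the others. The authors' confidence intervals near 10 FPKM had half-widths of 63.0% and 35.2% of the value in those 2 libraries, and of 10.1 to 16.5% in the other 34. In the second brainstem D library and the second cortex E library, the olfactory bulb markers went against the labelled region. Markers of the labelled cell type were detected throughout: the mean log2(FPKM + 1) over 10 astrocyte markers spanned 3.75 to 6.95 in A to E, with a median of 5.63, and 2.2 to 4.0 in Neg, with a median of 3.37. None of the 10 was at 0 in every library of a population. Mature oligodendrocyte and neuron markers had medians of 4.20 and 3.25 in A to E, and of 3.78 and 3.64 in Neg. Such means do not give the share of a cell type in a library.

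The 28 genes were expressed at low to moderate levels. Hmgcs1, which makes the HMG-CoA from which mevalonate is formed, had the highest mean over the 36 libraries at 17.8 FPKM and was the only one at 1 FPKM or more in all 36. It was followed by Sqle at 11.8 FPKM, Srebf2 at 10.7, Srebf1 at 10.4, Msmo1 at 10.1 and Insig1 at 9.96. In the first step, Acly, which supplies cytosolic acetyl-CoA, averaged 9.68 FPKM and mevalonate decarboxylase Mvd 1.94. The isoprenoid enzymes were the lowest as a step, with Ggps1, which makes geranylgeranyl pyrophosphate, at 4.99 FPKM, the isomerase Idi1 at 0.778 and farnesyl pyrophosphate synthase Fdps at 0.501. The values of Idi1 and Fdps may be uncertain, since near-identical copies of these genes could take part of their reads, which was not tested. Among the later enzymes Msmo1 and Sc5d averaged 10.1 and 9.34 FPKM, whereas the C14 reductases Tm7sf2 and Lbr averaged 1.40 and 1.03 FPKM. Tm7sf2 was listed at 0 in 15 libraries, Mvd in 14, Fdps in 12, Ebp in 11 and Stard4 in 10. An FPKM of 0 in a library of few genes need not mean that no transcript was there, and these genes are described as listed at 0. Nuclear transcripts marked as without an estimate numbered at most 6 in a library, the second of brainstem B.

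**Figure D2:**
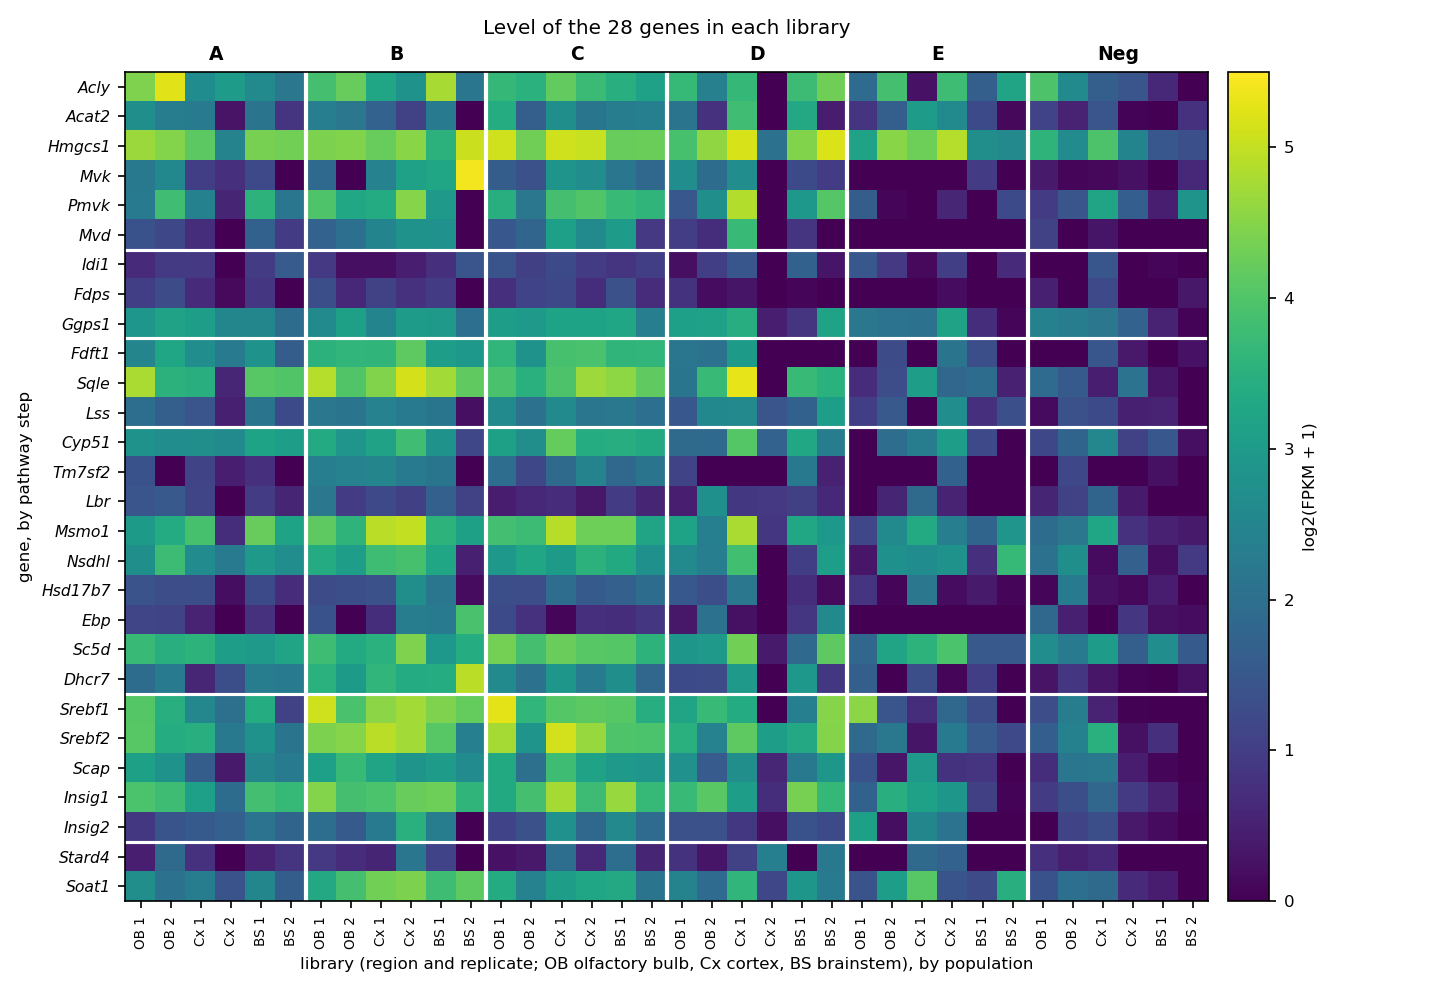
Level of the 28 genes (rows, ordered by pathway step, white lines between steps) in each of the 36 libraries (columns, by population and, within it, by region and replicate), as log2(FPKM + 1) on a colour scale from 0 to the highest value. B and C are the brightest blocks, E and Neg the darkest, and the second cortex D column stands out as dark within D.

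The mean log2(FPKM + 1) over the 28 genes gave the order of the populations. Its lowest, median and highest library values were 1.2, 2.22 and 2.57 in A, 2.09, 2.89 and 3.22 in B, 2.30, 2.81 and 3.12 in C, 0.573, 2.09 and 2.94 in D, 0.809, 1.29 and 1.81 in E, and 0.355, 0.955 and 1.5 in Neg. B and C lay highest with overlapping ranges, A and D followed, and E overlapped Neg. The 2 cortex D libraries stood at the ends of the D range: the second had 15 of the 28 genes listed at 0, and the first had 2.94. The median number of detected genes ran in the same order over B, C, A and D, at 9650.5, 9183, 8289.5 and 7928.5, but was lower in E than in Neg, at 4441.5 and 5024.5. The values were therefore also quantile normalized, which gives every library the same distribution of values. The medians were then 2.02 in A, 2.36 in B, 2.19 in C, 1.93 in D, 1.86 in E and 1.44 in Neg. The order of the medians was that of the deposited values, and the highest Neg library, at 1.74, lay below every A, B and C library. In bulk samples, fewer cells of a type and less RNA per cell cannot be told apart.

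The first comparison set the mean of the lettered populations against Neg. Both SREBP genes, Insig1, the enzymes of squalene formation and oxidation and the esterifying enzyme Soat1 were higher in that mean on both the deposited and the quantile-normalized scale. A mean can differ from Neg without each population doing so. Srebf2 in E, at 0.241 to 3.71 FPKM, lay within the Neg range of 0 to 10.3 FPKM. The test was limma on log2(FPKM + 1) of the 13583 genes that reached 1 FPKM in 2 libraries, with Benjamini-Hochberg adjustment over all of them. At an adjusted p under 0.05, 18 of the 28 genes rose in A to E and 0 fell. Of all genes tested 20.3% were called, 20.2% as higher and 0.14% as lower. The median difference was 1.2 on the log2 scale over the 28 genes, against 0.50 over all genes tested, and it was positive for all 28. After quantile normalization, where the median over all genes was 0.00, 6 of 28 rose and 0 fell, against 6.96% of all genes called and 2.92% called higher. The median over the 28 genes was then 0.54, and 23 were positive.

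**Figure D3:**
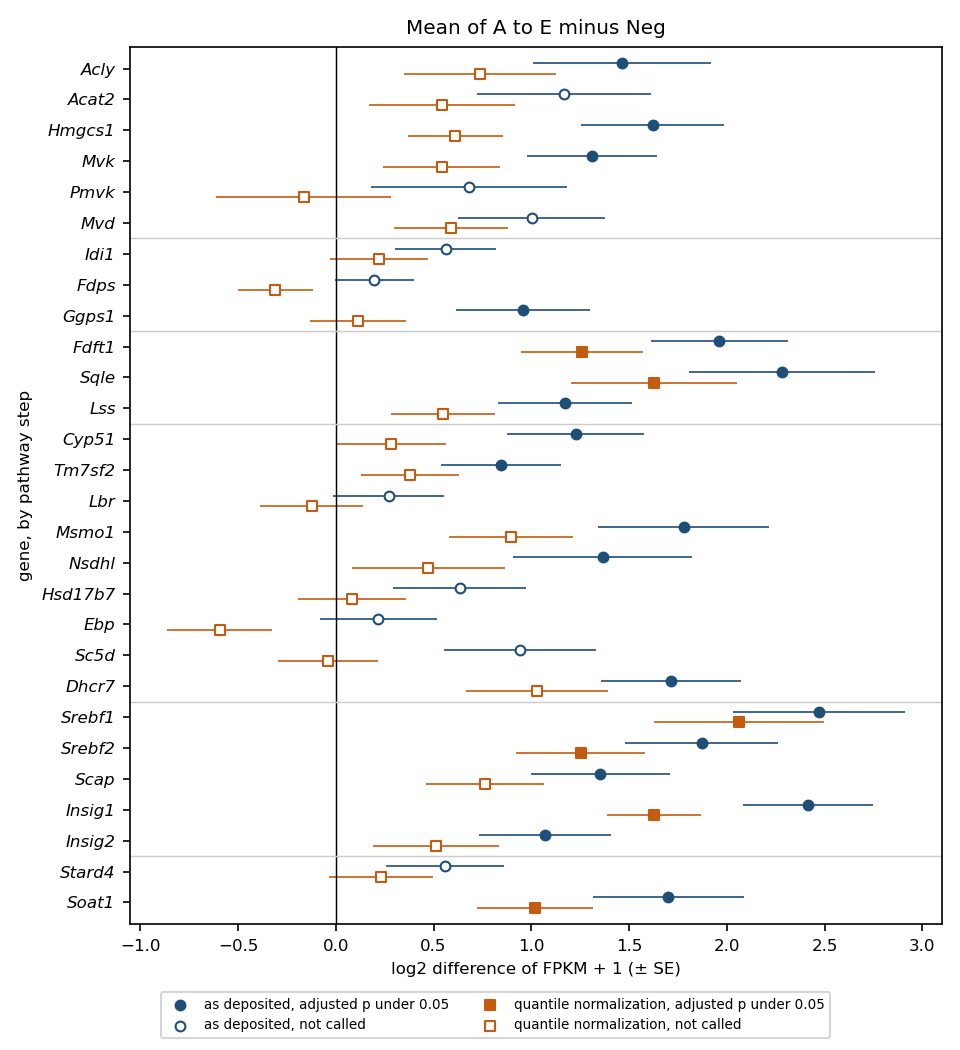
Difference of A to E minus Neg for each of the 28 genes, by pathway step, on the log2(FPKM + 1) scale with standard errors from limma, as deposited and after quantile normalization; filled symbols passed an adjusted p of 0.05. All 28 deposited values lie above 0 and 18 are filled; after quantile normalization 6 are filled and 5 lie below 0.

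Of the SREBP genes and their regulators 5 of 5 were called as deposited and 3 of 5 after quantile normalization, with a median difference of 1.87. For this step and those below, the shares of all genes called higher were 20.2% as deposited and 2.92% after quantile normalization. Srebf1 (chr11:60199089-60222581, minus strand), whose SREBP1 products favour fatty acid genes, had a lowest, median and highest value of 0, 10.6 and 37.6 FPKM in A to E, against 0, 0.228 and 4.06 FPKM in Neg. The ranges overlapped through 8 lettered libraries, and 22 of 30 lay above every Neg library. The difference was 2.47 ± 0.44 (SE), with a limma adjusted p of 0.00053, and 2.06 ± 0.43 after quantile normalization, with a limma adjusted p of 0.00423. Insig1 (chr5:28071363-28078662, plus strand), the retention factor that is itself a target of SREBPs, had 0.0369, 11.9 and 26.1 FPKM in A to E, against 0.0415, 0.941 and 2.5 FPKM in Neg. It separated the groups best of the 28 by count, with 26 of 30 lettered libraries above all of Neg, and the 4 that overlapped were a cortex D and 3 E libraries. The difference was 2.42 ± 0.33, with a limma adjusted p of 3.45e-05, and 1.63 ± 0.24 after quantile normalization, with a limma adjusted p of 0.000256.

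Srebf2 (chr15:82147181-82205379, plus strand), whose product SREBP2 favours the cholesterol genes, had 0.241, 9.86 and 34 FPKM in A to E, against 0, 1.40 and 10.3 FPKM in Neg. A single Neg library, the first from cortex, was at 10.3 FPKM and the other 5 were at 4.34 or less, so that the groups overlapped more than for Insig1. The difference was 1.87 ± 0.39, with a limma adjusted p of 0.00222, and 1.25 ± 0.33 after quantile normalization, with a limma adjusted p of 0.0203. Scap and Insig2, the escort and the second retention factor, were called as deposited, at 1.35 and 1.07, and not after quantile normalization.

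The step from farnesyl pyrophosphate to lanosterol had 3 of 3 genes called as deposited and 2 of 3 after quantile normalization, with a median difference of 1.96. Fdft1 (chr14:63145150-63179578, minus strand), squalene synthase, had 0, 5.77 and 16.5 FPKM in A to E, against 0, 0.102 and 1.77 FPKM in Neg. Of the 30 lettered libraries 22 lay above all of Neg, and those within its range were from D and E. The difference was 1.96 ± 0.35, with a limma adjusted p of 0.00053, and 1.26 ± 0.31 after quantile normalization, with a limma adjusted p of 0.0139. Sqle (chr15:59315077-59331192, plus strand), squalene epoxidase, had 0, 13.2 and 38.2 FPKM in A to E, against 0, 1.17 and 3.27 FPKM in Neg. Both ends of its range in the lettered libraries came from cortex D, at 38.2 FPKM in the first and 0 in the second, and 23 of 30 lay above all of Neg. The difference was 2.28 ± 0.47, with a limma adjusted p of 0.00205, and 1.63 ± 0.42 after quantile normalization, with a limma adjusted p of 0.0185. Lss, the cyclase that makes lanosterol, was called as deposited at 1.17 and not after quantile normalization.

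**Figure D4:**
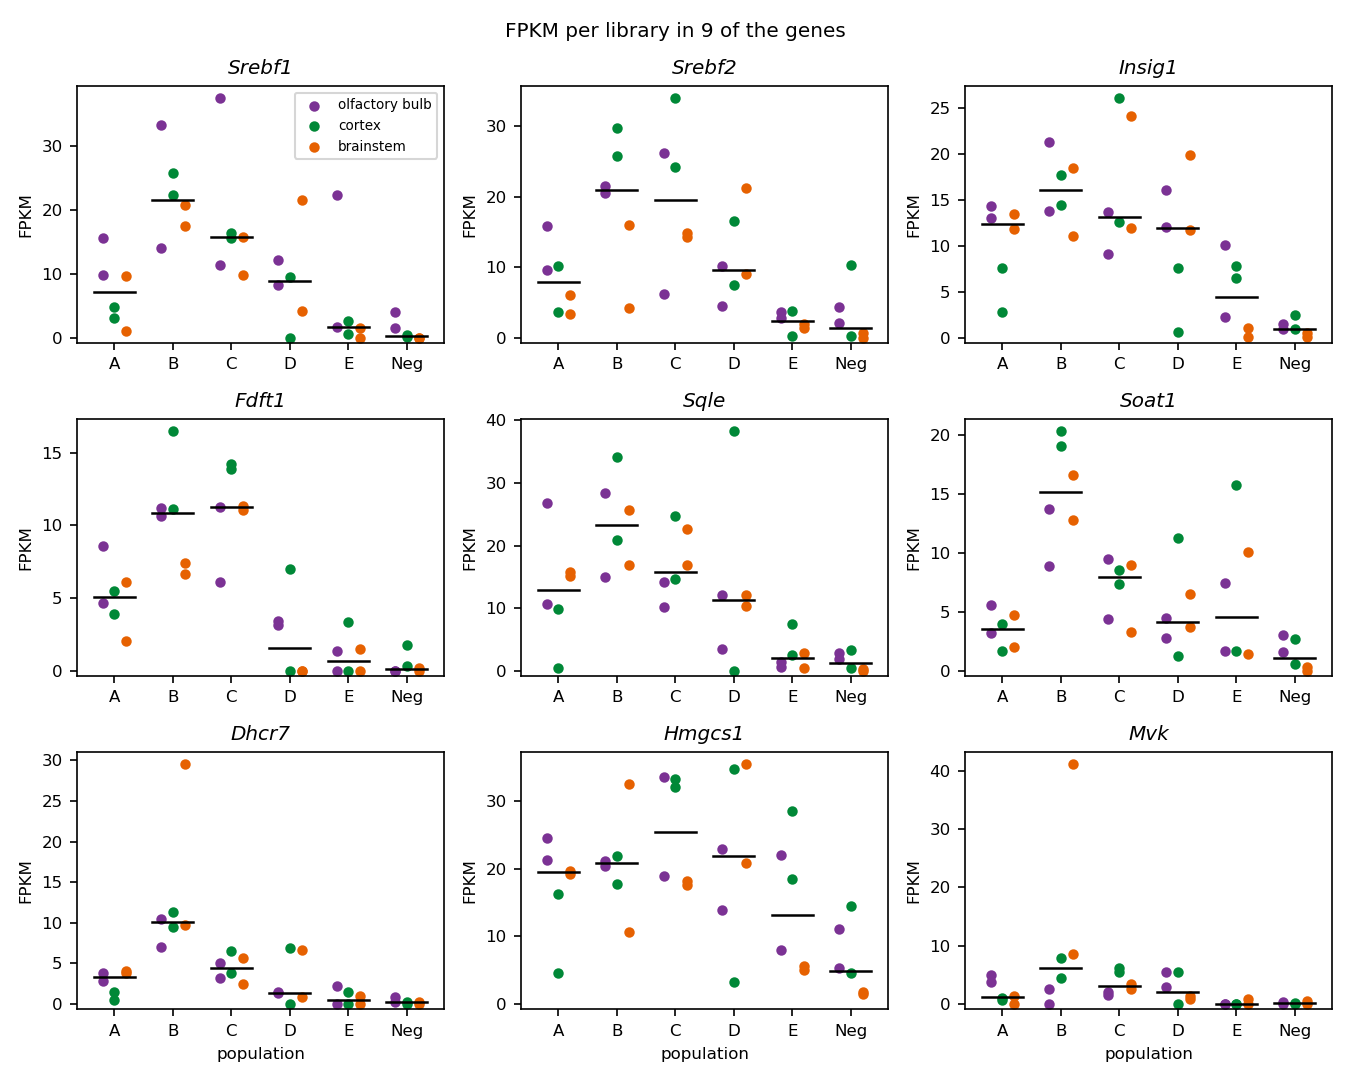
FPKM per library of 9 of the genes in the populations A to E and Neg (x axis); each point is 1 library, coloured by region, and the line is the median of the 6 libraries. The Neg points lie near the axis for Srebf1, Insig1, Fdft1, Dhcr7 and Mvk, the B points of Dhcr7 lie above those of all other populations, and the E points of Srebf2 lie between 0.241 and 3.71 FPKM.

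In the other steps fewer genes passed. Of the 6 genes from acetyl-CoA to mevalonate pyrophosphate, with the decarboxylase Mvd included, 3 were called (Acly, Hmgcs1 and mevalonate kinase Mvk), and 0 after quantile normalization. Hmgcs1 (chr13:119690379-119708260, plus strand) had 3.20, 20.0 and 35.4 FPKM in A to E, against 1.55, 4.93 and 14.5 FPKM in Neg, and 23 of 30 lettered libraries lay above all of Neg. Its difference was 1.62 ± 0.37 with a limma adjusted p of 0.00387, and 0.61 ± 0.24 with a limma adjusted p of 0.135 after quantile normalization. Of the isoprenoid enzymes 1 of 3 was called: Ggps1 (chr13:14050659-14063488, minus strand) had 0.0480, 6.61 and 9.75 FPKM in A to E, against 0.0449, 2.91 and 4.31 FPKM in Neg. Its groups overlapped in 10 lettered libraries, and its difference of 0.96 ± 0.34 had a limma adjusted p of 0.0462. The thiolase Acat2, at 1.17, and Mvd, at 1.00, came close with limma adjusted p of 0.0583 and 0.0542, and Pmvk, Idi1 and Fdps did not pass at 0.68, 0.56 and 0.20.

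Of the 9 enzymes from lanosterol to cholesterol 5 were called (Cyp51, Tm7sf2, Msmo1, Nsdhl and Dhcr7), and 0 after quantile normalization. Msmo1 (chr8:64718139-64733792, minus strand), the C4 methyl oxidase, had 0.651, 9.05 and 31.0 FPKM in A to E, against 0.317, 1.79 and 8.38 FPKM in Neg. The highest Neg value was again that of the first cortex library, and 16 of 30 lettered libraries lay above it. The difference was 1.78 ± 0.44 with a limma adjusted p of 0.00693, and 0.90 ± 0.32 with a limma adjusted p of 0.0877 after quantile normalization. Tm7sf2 passed narrowly as deposited, at 0.84 ± 0.31. Sc5d, which introduces a double bond in the sterol ring, did not pass at 0.94 ± 0.39 with a limma adjusted p of 0.0786, nor did Hsd17b7, Lbr or Ebp at 0.63, 0.27 and 0.22.

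The esterifying enzyme Soat1 (chr1:156424525-156474331, minus strand), which makes cholesteryl esters for storage, had 1.26, 6.05 and 20.3 FPKM in A to E, against 0, 1.10 and 3.04 FPKM in Neg. All 30 lettered libraries lay above the Neg median and 23 above every Neg library. The difference was 1.70 ± 0.39, with a limma adjusted p of 0.00414, and 1.02 ± 0.30 after quantile normalization, with a limma adjusted p of 0.034. The sterol carrier Stard4 did not pass at 0.56.

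The 10 astrocyte markers moved with this comparison: 10 of 10 were called higher in A to E as deposited, and 9 of 10 after quantile normalization. Mature oligodendrocyte markers, of cells that also make much cholesterol, had a mean log2(FPKM + 1) of 2.35 to 6.75 over the lettered libraries, with a median of 4.20, and of 3.32 to 4.67 in Neg, with a median of 3.78, and none of the 9 was at 0 in every library of a population. Within the mature oligodendrocyte list the medians of single markers went both ways. That of Cnp was 42.5 FPKM in A to E and 12.1 FPKM in Neg, and that of Mobp 372 and 973 FPKM. Of 5 oligodendrocyte precursor and 6 endothelial markers 3 each were called higher in A to E as deposited. Of 9 microglia and 9 neuron markers 0 were called by limma. The part of cell composition in the differences was not tested. When FPKM were rescaled to the same sum in every library, 5 genes rose (Srebf1, Srebf2, Insig1, Fdft1 and Soat1) and 0 fell, against 3.51% of all genes called and 2.44% called higher. Without the second cortex Neg library the count of genes that rose was 9, and 11 without the first olfactory bulb or the second brainstem Neg library. Without the 8 libraries of fewer than 5000 genes, which leaves 3 of the 6 Neg libraries, it was 4 (Srebf1, Insig1, Sqle and Fdft1).

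Among the lettered populations, B was set against the mean of the other 4. Some sterol genes were higher in B as deposited, with Dhcr7 furthest apart, and Dhcr7 alone was called after quantile normalization. As deposited, 8 of 28 genes rose in B and 0 fell, while 15.7% of all genes tested were called and 15.4% were called higher. The median difference was 0.64 over the 28 genes and 0.35 over all genes. After quantile normalization 1 of 28 rose, against 5.95% of all genes called and 4.01% called higher, and the medians were 0.23 over the 28 genes and -0.05 over all genes. The count was above the background as deposited and near it after quantile normalization. Dhcr7 (chr7:143823145-143848410, plus strand), the reductase of the last step of the Kandutsch-Russell branch, had 10.5 and 7.01 FPKM in olfactory bulb B, 11.3 and 9.43 in cortex B and 9.67 and 29.5 in brainstem B, against a lowest, median and highest value of 0, 2.34 and 6.85 FPKM in the other lettered libraries. As deposited, all 6 B libraries lay above all 24 others. After quantile normalization the groups overlapped. The lowest B value was then 2.22, in the second olfactory bulb library, and the highest of the others was 2.73, in the first brainstem D library. How many of all genes separate B in this way was not counted. The difference was 2.04 ± 0.37, with a limma adjusted p of 0.000238, and 1.45 ± 0.37 after quantile normalization, with a limma adjusted p of 0.0163. Without the second brainstem B library, which held the highest value, it was 1.79 with a limma adjusted p of 0.00268.

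The other 7 genes that rose in B as deposited were Srebf1 at 1.65 ± 0.45, Sqle at 1.52 ± 0.48, Soat1 at 1.51 ± 0.39, Fdft1 at 1.46 ± 0.36, Mvk at 1.40 ± 0.34, the sterol isomerase Ebp at 1.18 ± 0.31 and Tm7sf2 at 1.08 ± 0.31. Soat1 had 8.91, 15.2 and 20.3 FPKM in B, against 1.26, 4.43 and 15.8 FPKM in the other lettered libraries, and the high end of the others, at 15.8 FPKM, was the first cortex E library. Its quantile-normalized difference was 0.98 ± 0.30, with a limma adjusted p of 0.0524. Srebf1 had 14.0, 21.6 and 33.4 FPKM in B, against 0, 9.53 and 37.6 FPKM in the others, whose highest value was the first olfactory bulb C library. The second brainstem B library differed from the other 5 within the pathway: it held 41.1 FPKM of Mvk and 14.1 FPKM of Ebp, the highest of all 36 libraries, and 7 of the 28 genes were listed at 0 there. Without it the Mvk difference was 1.04 with a limma adjusted p of 0.0424, and that of Ebp 0.90 with a limma adjusted p of 0.0549. All 9 microglia markers were higher in B on both scales, with a mean log2(FPKM + 1) of 5.39 to 6.52 in B, and of 2.00 to 3.83 in A, 2.64 to 5.33 in C, 0.863 to 3.50 in D and 0.324 to 2.00 in E. Other cell type markers moved with B too: 4 of 9 of mature oligodendrocytes, 4 of 5 of oligodendrocyte precursors, 3 of 6 of endothelium and 3 of 10 of astrocytes were higher in B as deposited, while 4 of 9 of neurons, 1 of mature oligodendrocytes and 1 of astrocytes were lower. The mean over the mature oligodendrocyte markers was 3.55 to 6.75 in B, with a median of 4.69, against medians of 3.86 to 4.13 in A, C, D and E, and its highest value was in the second brainstem B library, which also held the highest Mvk, Ebp and Dhcr7. The B median was 3.68 for oligodendrocyte precursor, 2.95 for endothelial and 2.58 for neuron markers, the last being the lowest of the lettered populations. None of these markers was at 0 in every B library, and their part in the sterol gene differences was not tested. The count of genes that rose in B was 3 without the first olfactory bulb B library and 13 without the first cortex D library, and it was 0 by limma after rescaling to the same sum, with 7 at an unadjusted p under 0.05 and 4.81% of all genes called.

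In C, 2 of 28 genes rose against the other lettered populations and 0 fell, against 7.52% of all genes called and 7.51% called higher, so the share was near the background. Fdft1 had 6.08, 11.3 and 14.2 FPKM in C, against 0, 3.67 and 16.5 FPKM in the other lettered libraries. C lay within the range of the others, whose highest value was from cortex B, and the difference was 1.58 ± 0.36 with a limma adjusted p of 0.0157. Tm7sf2 had 1.29, 2.82 and 4.50 FPKM in C, against 0, 0.401 and 4.70 FPKM in the others, a difference of 1.04 ± 0.31 with a limma adjusted p of 0.0429. After quantile normalization 0 of the 28 were called in C by limma, against 0.0442% of all genes, and 3 of the 28 had an unadjusted p under 0.05. The count in C was 0 without the first library of C from any of the 3 regions, and 12 without the first cortex D library. Astrocyte markers moved with C, with 8 of 10 called higher as deposited and a mean log2(FPKM + 1) of 6.28 to 6.95 in C. Of oligodendrocyte precursor markers 3 of 5 and of microglia markers 3 of 9 were also higher in C, and the part of these cell types was not tested.

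In A, limma called 0 of the 28 genes and 0 of all genes tested, while 481 of all and 1 of the 28 had an unadjusted p under 0.05 (Soat1, at -0.83 ± 0.39). In D, limma called 0 of the 28 on either scale, against 0.103% of all genes as deposited and 0.11% after quantile normalization, and 1 of the 28 had an unadjusted p under 0.05. It was Fdft1, which had 0, 1.59 and 7.02 FPKM in D, against 0, 6.38 and 16.5 FPKM in the other lettered libraries. It was listed at 0 in both brainstem D libraries and in the second from cortex, and the difference was -1.39 ± 0.36 with a limma adjusted p of 0.165. Without the first cortex D library the difference was -1.89 and Fdft1 was called.

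**Figure D5:**
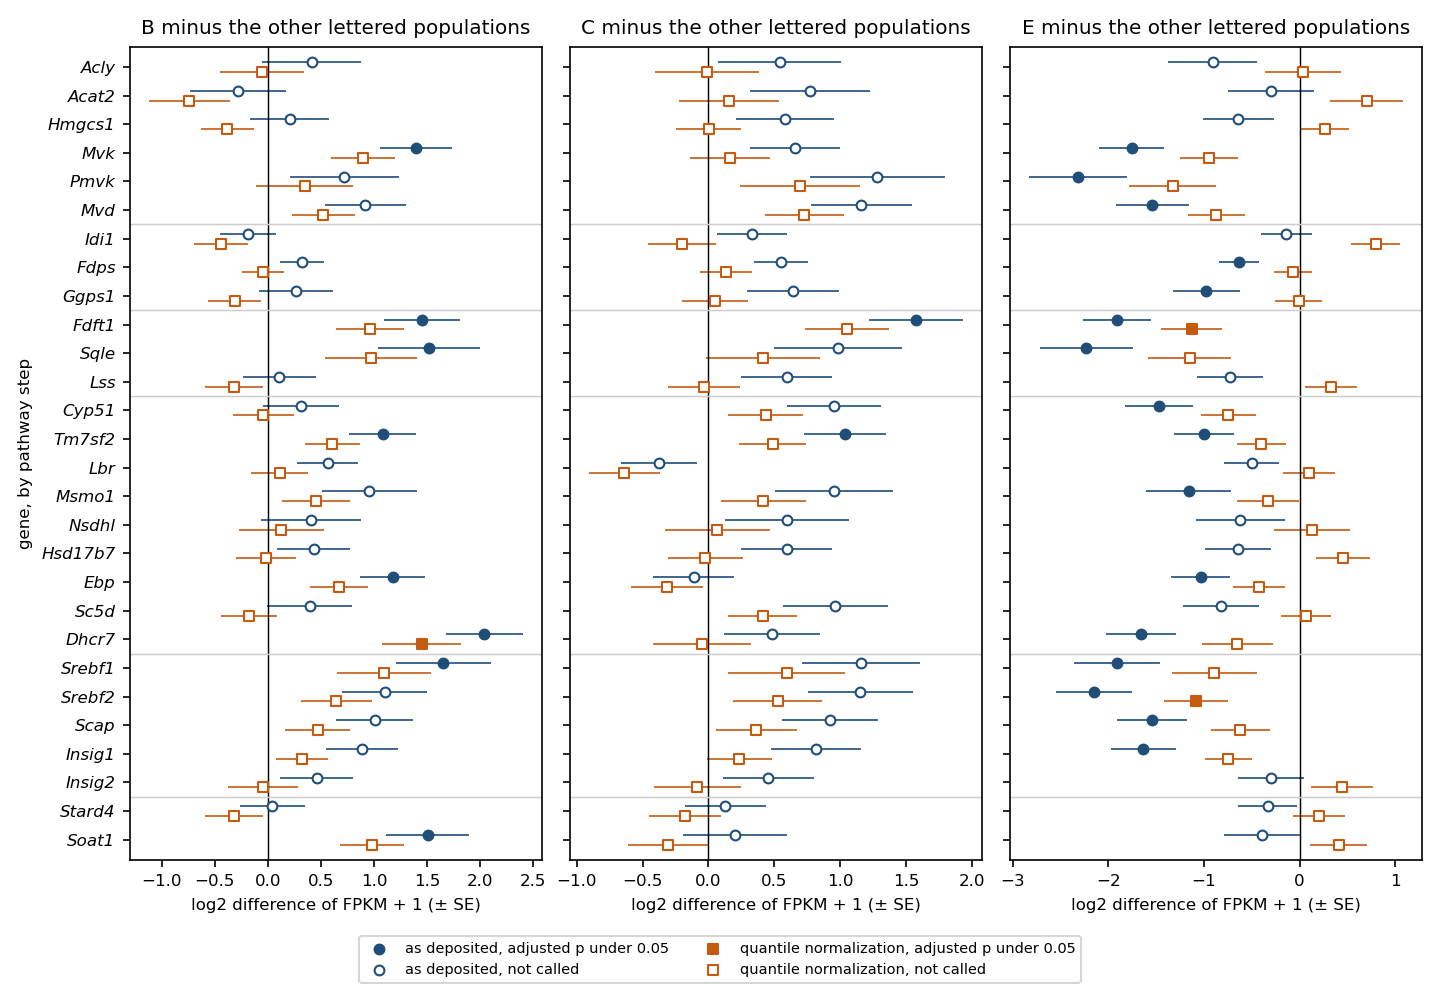
Difference of B, C and E (panels from left to right), each minus the mean over the other 4 lettered populations, for each of the 28 genes by pathway step, on the log2(FPKM + 1) scale with standard errors from limma, as deposited (circles) and after quantile normalization (squares); filled symbols passed an adjusted p of 0.05. As deposited 8, 2 and 16 symbols are filled, and after quantile normalization Dhcr7 in B and Fdft1 and Srebf2 in E.

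E was the lettered population with the lowest levels. As deposited, 16 of 28 genes fell in E against the other lettered populations and 0 rose, while 42.6% of all genes tested were called and 42.5% were called lower. The median difference was -0.98 over the 28 genes and -0.66 over all genes. After quantile normalization 2 of 28 fell, Srebf2 and Fdft1, against 7.91% of all genes called and 4.15% called lower, and the medians were -0.20 over the 28 genes and 0.06 over all genes. Genes at large were lower as well, with 5771 of 13583 called lower as deposited, and the count of the 28 was near the background after quantile normalization. Srebf2 had 2.75 and 3.63 FPKM in olfactory bulb E, 0.241 and 3.71 in cortex E and 1.97 and 1.31 in brainstem E, against a lowest, median and highest value of 3.33, 14.6 and 34 FPKM in the other lettered libraries. As deposited, 4 of the 6 E libraries lay below all 24 others, and the other 2 lay just inside their low end. After quantile normalization only the first cortex E library, at 1.08, lay below the lowest of the others, at 2.07. How many of all genes separate E in this way was not counted. The difference was -2.15 ± 0.40, with a limma adjusted p of 0.000356, and -1.08 ± 0.34 after quantile normalization, with a limma adjusted p of 0.0465. Fdft1 had 0, 0.692 and 3.35 FPKM in E, against 0, 6.84 and 16.5 FPKM in the others. It was listed at 0 in 3 of the 6 E libraries, and the overlap came from D and 1 A library. The difference was -1.91 ± 0.36, with a limma adjusted p of 0.000359, and -1.13 ± 0.32 after quantile normalization, with a limma adjusted p of 0.0306.

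By step, 3 of the 6 genes from acetyl-CoA to mevalonate pyrophosphate, with the decarboxylase Mvd included, fell in E as deposited. So did 2 of 3 isoprenoid enzymes, 2 of 3 in the squalene step and 5 of 9 from lanosterol to cholesterol. Of the SREBP regulation genes 4 of 5 fell, and 0 of 2 in transport and esterification. Of all genes tested 42.5% were called lower as deposited, and after quantile normalization only Srebf2 and Fdft1 among the pathway genes were. The kinases and the decarboxylase of the mevalonate steps were among the lowest. Pmvk, phosphomevalonate kinase, had 0, 0.288 and 2.07 FPKM in E, against 0, 9.16 and 28.3 FPKM in the others, a difference of -2.32 ± 0.51 with a limma adjusted p of 0.00147. Mvk was listed at 0 in 5 of 6 E libraries and had 0.937 FPKM in the other, and Mvd and Ebp were listed at 0 in all 6. Hmgcs1 was not called lower in E: it had 5.01, 13.2 and 28.4 FPKM in E, against 3.20, 20.6 and 35.4 FPKM in the others. Soat1, at 1.41, 4.58 and 15.8 FPKM in E, against 1.26, 6.05 and 20.3 FPKM in the others, was not called either. Sqle had 0.425, 1.99 and 7.52 FPKM in E, against 0, 15.1 and 38.2 FPKM in the others, and Insig1 0.0369, 4.39 and 10.04 FPKM in E, against 0.636, 13.2 and 26.1 FPKM in the others. Srebf1 had 22.4 FPKM in the first olfactory bulb E library, which is of low depth, and 2.57 FPKM or less in the other 5. Its difference was -1.91 as deposited and -2.43 without that library.

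Several measures moved with E. It had the lowest median number of detected genes of the lettered populations and both libraries of lowest depth, and 11 of the 28 genes fell without those 2 libraries. Of the astrocyte markers 8 of 10 were lower in E as deposited, with a mean log2(FPKM + 1) of 3.75 to 5.18. Most markers of some other cell types were lower in E as well: 9 of 9 of microglia, 5 of 5 of oligodendrocyte precursors, 5 of 6 of endothelium and 5 of 5 of blood. For mature oligodendrocytes 3 of 9 were lower and for neurons 1 of 9, shares below the 42.5% of all genes called lower. The mean log2(FPKM + 1) over the oligodendrocyte precursor markers was 0.538 to 1.49 in E, with a median of 0.937, against population medians of 2.63 to 3.68 in A to D. For endothelial markers it was 0.114 to 1.84 in E, with a median of 0.920, against medians of 2.19 to 2.95 in A to D, and for blood 0.211 to 1.11 in E, with a median of 0.634, against medians of 1.6 to 3.10 in A to D. None of these markers was at 0 in every E library. After quantile normalization 6 microglia, 2 oligodendrocyte precursor, 1 blood, 1 astrocyte and 0 endothelial markers were called lower in E. All D and all E libraries carry numbers of the second of the number series in the sample titles, with 3 libraries of A and B, and the labels do not say what these numbers are. With a term for the number series 0 of the 28 were called by limma in E, against 135 genes in all, and 9 of the 28 had an unadjusted p under 0.05. Within the second series alone, where E is compared with D and with 3 libraries of A and B, 0 were called by limma, with 4 at an unadjusted p under 0.05, and the first series holds no E library. After rescaling to the same sum, 8 of the 28 fell in E, against 22.1% of all genes called and 20.8% called lower, and Srebf2 was not among them. The part of these measures in the E differences was not tested.

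The regions were compared over the lettered populations, 10 libraries each. As deposited, limma called 0 of the 28 genes between olfactory bulb and cortex, against 3.73% of all genes, 0 between olfactory bulb and brainstem, against 5.19%, and 0 between cortex and brainstem, against 1.75%. The numbers of the 28 with an unadjusted p under 0.05 were 4, 2 and 2. After quantile normalization 1 gene, the lanosterol demethylase Cyp51, was lower in olfactory bulb than in cortex, against 3.49% of all genes called and 1.31% called lower, and limma called 0 in the other 2 pairs, against 4.8% and 2.08%. Cyp51 had a lowest, median and highest value of 0, 5.55 and 9.34 FPKM in olfactory bulb, against 2.33, 7.79 and 17.3 FPKM in cortex. The regions overlapped, and the difference was -0.78 ± 0.35 as deposited, with a limma adjusted p of 0.27, and -1.02 ± 0.28 after quantile normalization, with a limma adjusted p of 0.0376. Srebf1 had 1.74, 13.1 and 37.6 FPKM in olfactory bulb, against 0, 7.14 and 25.8 FPKM in cortex, a difference of 1.03 ± 0.44 with a limma adjusted p of 0.235. Ggps1 had 3.27, 7.2 and 7.99 FPKM in olfactory bulb, against 0.0480, 3.57 and 8.52 FPKM in brainstem, a difference of 0.85 ± 0.34 with a limma adjusted p of 0.158. Without the 2 libraries whose region markers went against their labels, Ggps1 was called at 1.08 with a limma adjusted p of 0.0388. Whether the population differences depended on the region was tested as an interaction of 10 terms, which called 0 of the 28 and 0.0147% of all genes by limma, with 2 of the 28 (Mvk and Insig1) at an unadjusted p under 0.05.

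Genes that neighbour the pathway were counted by list. Of 12 fatty acid synthesis genes, many of which are SREBP1 targets, 8 rose in A to E against Neg and 0 fell, while 20.2% of all genes tested were called higher, and the median difference was 1.56, against 0.50 over all genes. After quantile normalization 5 rose, against 2.92% of all genes called higher: the elongase Elovl5, the desaturases Fads1, Fads2 and Scd2, and fatty acid synthase Fasn. Fads2 had 3.49, 59.7 and 176 FPKM in A to E, against 0.0847, 6.64 and 29.9 FPKM in Neg, and Fasn had 0.0131, 10.3 and 28.6 FPKM in A to E, against 0.0533, 1.17 and 2.74 FPKM in Neg. The differences of Elovl5, Fads1, Fads2, Fasn and Scd2 were 2.73, 2.78, 2.86, 2.25 and 2.12 as deposited, and 1.73, 1.64, 1.77, 1.55 and 0.99 after quantile normalization. In B 1 of the 12 rose as deposited (Elovl5), a share below the 15.4% of all genes called higher, and after quantile normalization Scd1 fell at -1.41. Scd1 had 40.2, 50.5 and 183 FPKM in B, against 35.7, 153 and 271 FPKM in the other lettered libraries. In E 5 of the 12 fell as deposited, a share at the background of 42.5% called lower, and after quantile normalization Fads2 fell, at -1.60, while Scd1 rose, at 1.2.

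Of 15 genes of sterol export, uptake and turnover 14 could be tested, and 6 of them rose in A to E against Neg, while 20.2% of all genes were called higher, with a median difference of 0.85. After quantile normalization 4 rose, against 2.92%. On both scales these included Apoe, the main lipoprotein component made by astrocytes, the receptor Lrp1, the lysosomal sterol carrier Npc2 and the phospholipid acyltransferase Lpcat3. Apoe had 36.2, 528 and 1719 FPKM in A to E, against 8.01, 54.1 and 129 FPKM in Neg, a difference of 3.51 as deposited and 2.35 after quantile normalization. In B 9 of the 14 rose, against 15.4% of all genes called higher. After quantile normalization 3 rose, Apoe, Lpcat3 and Nr1h2, the sterol sensing receptor LXR beta, against 4.01% of all genes. Lpcat3 had 5.66, 11.8 and 15.5 FPKM in B, against 0, 3.37 and 7.84 FPKM in the other lettered libraries, and its difference was 1.78 as deposited and 1.25 after quantile normalization. In E 11 of the 14 fell, against 42.5% of all genes called lower. Apoe, Lpcat3, Lrp1, Npc2 and Nr1h2 fell on both scales, against 4.15% of all genes called lower after quantile normalization, while the receptor Vldlr rose after quantile normalization, at 0.85. Nr1h2 was at most 0.265 FPKM in E, against 0, 4.12 and 17.3 FPKM in the others. Of the 9 genes of SREBP processing and sterol sensing 3 rose in A to E against Neg, where 20.2% of all genes were called higher, 1 rose in B, where 15.4% were, and 2 rose in C, where 7.51% were. In E 6 of the 9 fell, where 42.5% of all genes were called lower. The share in B was below the background, and 0 of the 9 were called after quantile normalization by limma in these comparisons.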

How the data were processed

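The authors deposited 63241 UCSC transcripts per library with FPKM, coverage, their confidence limits and a locus, per the file headers. RNA was amplified with the NuGEN Ovation V2 kit, which uses random and oligo-dT priming and does not keep strand, per the labels' protocols, so overlapping genes on opposite strands cannot be told apart. The assignment to genes used the locus and not the strand, and 5 transcripts that overlap Srebf1 went to another gene. TopHat, Cufflinks, bcl2fastq 1.8.3 and mm10 are named in the submitters' processing notes. Here 52579 transcripts (83.1%) were assigned to a gene by locus (overlap score of at least 0.5, margin 0.1) and FPKM were summed per gene. limma 3.58.1 in R 4.3.3 was fitted with a variance trend to log2(FPKM + 1) from the deposited values, with 18 group means and 18 residual degrees of freedom, and was checked on simulated data. Regions and populations were weighted equally. Depth per library came from the ratio of coverage to FPKM in the deposited files, and whole counts were not used. The p-value threshold was an adjusted 0.05. Tables were made with Python 3.11.15, pandas 2.3.3, numpy 2.4.6 and matplotlib 3.10.9. Alternatives were rescaling to a sum of 1000000, quantile normalization, a pseudocount of 0.1, no filter, 1 transcript per gene, array weights, a term for the number series, and leaving out libraries; 3 more were chosen after seeing the data (rows inside 1 gene, and each number series alone). All 28 genes are described, with full values for those called on both scales (at most the 4 with the largest difference in a comparison and direction) and for the highest of each step. Other genes with values, such as Soat1, Mvk and Pmvk in single populations, were chosen after their values were seen. The members and lists were chosen with earlier results of these data known.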

Additional observations from a re-analysis of the deposited data

How the results depend on the processing

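No paired analysis was possible because the labels give no replicate numbers. The deposited FPKM are the only values, so counts of reads were not used, and the files limit low genes most in the 2 shallow E libraries. The number of the 28 genes called in A to E against Neg was 5 after rescaling, 6 after quantile normalization and 4 without the 8 libraries of fewer than 5000 genes. In B it was 0 after rescaling, 1 after quantile normalization, 4 with a pseudocount of 0.1, 2 with the number series term, 5 without the 8 libraries, 2 in the first number series alone and 1 in the second. In C it was 0 after rescaling, after quantile normalization, with a pseudocount of 0.1, with the number series term and in the first number series alone, 1 with no filter, without the 2 shallow libraries and without the 8 libraries, and 11 with array weights. In E it was 8 after rescaling, 2 after quantile normalization, 0 with the number series term, 10 without the 8 libraries and 0 in the second number series alone. Quantile normalization gave 1 between olfactory bulb and cortex, and leaving out the 2 libraries whose region markers went against their labels gave 1 between olfactory bulb and brainstem. Leaving out 1 library gave 9 to 21 in A to E against Neg, 0 to 0 in A, 3 to 13 in B, 0 to 12 in C, 0 to 1 in D, 14 to 19 in E, 0 to 1 between olfactory bulb and cortex and between olfactory bulb and brainstem, 0 to 0 between cortex and brainstem and 0 to 0 for the interaction. In C the count was also 5 without the first brainstem B library. Tm7sf2 in B turned to -0.46 in the second number series alone. The causes were not tested. Over all genes, 3.51% were called after rescaling in A to E against Neg, 4.81% in B and 22.1% in E. After quantile normalization these shares were 6.96%, 5.95% and 7.91%. Where the share over all genes is not given, a changed count cannot be told from a change in calls over all genes. Of 48 other settings, Insig1, Srebf1 and Fdft1 lost their call in A to E against Neg in 0, Sqle, Srebf2 and Soat1 in 1 each, Ggps1 in 30 and Tm7sf2 in 32. Dhcr7 in B lost it in 2 of 49.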
